A study of Homo sapiens with 54 samples.

Results

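The zinc finger genes of chromosome band 19q13.43, at the telomeric end of the long arm, were taken as a list of 46 gene symbols, looked up in the gene column of the deposited gene-level tables. All 46 were found among the 59368 genes of those tables. RNA had been sequenced from 3 established lines of human colorectal carcinoma, namely HCT-116, DLD-1 and HT-29, each as sensitive parental cells and as a resistant form obtained by growing them for months in rising concentrations of 5-fluorouracil (5-FU), a pyrimidine analogue that inhibits thymidylate synthase. Each form received 10 µM uracil for 24 h as the control, 10 µM 5-FU for 24 h, or 10 µM 5-FU for 24 h followed, after a change of medium, by X-rays at the LD50 of that line, the dose lethal to 50% of its cells. The 18 conditions had 3 libraries each, which made 54 libraries of poly(A)-selected RNA. No library was left without uracil or drug, each resistant form is 1 derived cell population, and the resistant forms were maintained in 5-FU. The sources used here do not say whether they were clones, or whether the drug was withdrawn before uracil was added, so resistance and long exposure to 5-FU cannot be told apart.

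KRAB zinc finger proteins are the largest family of transcription factors in the human genome. Their zinc fingers bind DNA, often in transposable elements, and their KRAB box binds TRIM28 (KAP1), a scaffold that brings the histone methyltransferase SETDB1 and heterochromatin protein to the site and silences it. Most of these genes arose by tandem duplication and stand in clusters, many of them on chromosome 19, and several members of the 19q13.43 cluster carry promoter methylation in tumours.

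The members lie on chromosome 19 in 3 blocks (GENCODE 44, GRCh38). The 6 genes proximal to the imprinted gene PEG3, from ZNF583 to ZNF71, span positions 56397966 to 56626481. The 30 genes of the central block, from ZNF264 to ZNF606, span 57191500 to 58003349. The 10 genes of the distal block, from ZNF135 to ZNF446, span 58059239 to 58481230. Translated GENCODE transcripts held C2H2 fingers in all 46 members and a KRAB box in 44; ZNF134 and ZNF329 had none in any isoform. The number of fingers in the longest product ran from 3 in ZNF446 to 23 in ZNF814, with a median of 12. Neighbours resemble each other: the proteins of ZNF587 and ZNF417 are 98.1% identical over 575 aligned residues, those of ZNF419 and ZNF773 89.6%, ZNF552 and ZNF587B 87.5%, ZNF324B and ZNF324 86.4%, ZNF587B and ZNF814 85.9%, and ZNF264 and ZNF805 85.5%. The authors' counting divided reads shared by such copies by estimate, so the values of these genes are less certain than the others. Gene bodies overlap in 6 pairs of members, 4 of them on opposite strands (ZNF549 and ZNF550, ZNF551 and ZNF154, ZNF586 and ZNF552, ZNF814 and ZNF587) and 2 on the same strand (ZNF586 and ZNF587B, ZNF324 and ZNF446), and since the strand setting of the counting is not given in the sources used here, reads from the overlaps may be uncertain.

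The promoters of 6 members are shown because the results turn on these genes: 5 were expressed in some cell forms and nearly absent from others (ZNF71, ZNF256, ZNF304, ZNF548, ZNF550), and 1, ZNF416, was low in a single form. Each is the window of 250 bases just before the start of the gene in RefSeq (GRCh38.p14), printed 5′ to 3′ on the strand of the gene, with every CG dinucleotide, the target of DNA methylation, in capitals.
ZNF71 (chr19:56595052-56595301, plus strand): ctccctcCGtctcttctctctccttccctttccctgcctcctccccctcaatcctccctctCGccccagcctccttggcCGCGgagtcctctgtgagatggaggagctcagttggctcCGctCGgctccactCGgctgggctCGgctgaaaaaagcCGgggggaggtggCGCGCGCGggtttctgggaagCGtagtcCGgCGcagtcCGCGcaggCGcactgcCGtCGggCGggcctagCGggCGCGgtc
ZNF304 (chr19:57351021-57351270, plus strand): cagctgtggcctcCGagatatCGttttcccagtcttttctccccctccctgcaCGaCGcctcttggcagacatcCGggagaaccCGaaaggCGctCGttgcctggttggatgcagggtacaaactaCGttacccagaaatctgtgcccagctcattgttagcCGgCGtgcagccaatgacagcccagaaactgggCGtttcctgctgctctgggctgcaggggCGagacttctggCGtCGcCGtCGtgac
ZNF548 (chr19:57389604-57389853, plus strand): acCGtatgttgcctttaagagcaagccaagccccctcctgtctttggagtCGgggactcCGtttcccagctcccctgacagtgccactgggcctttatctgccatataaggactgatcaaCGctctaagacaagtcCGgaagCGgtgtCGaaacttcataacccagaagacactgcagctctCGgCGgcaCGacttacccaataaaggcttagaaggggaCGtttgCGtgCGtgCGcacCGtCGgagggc
ZNF550 (chr19:57559864-57560113, minus strand): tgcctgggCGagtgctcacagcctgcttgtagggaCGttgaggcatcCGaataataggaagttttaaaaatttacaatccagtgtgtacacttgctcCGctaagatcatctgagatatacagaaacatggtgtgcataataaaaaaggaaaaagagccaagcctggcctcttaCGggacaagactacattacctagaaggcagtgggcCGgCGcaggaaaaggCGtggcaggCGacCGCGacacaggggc
ZNF416 (chr19:57578912-57579161, minus strand): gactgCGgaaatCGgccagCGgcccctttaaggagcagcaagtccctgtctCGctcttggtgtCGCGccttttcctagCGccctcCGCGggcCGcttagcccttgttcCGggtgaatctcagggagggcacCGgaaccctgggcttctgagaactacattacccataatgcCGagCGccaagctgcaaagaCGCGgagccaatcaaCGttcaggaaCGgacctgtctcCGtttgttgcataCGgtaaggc
ZNF256 (chr19:57947707-57947956, minus strand): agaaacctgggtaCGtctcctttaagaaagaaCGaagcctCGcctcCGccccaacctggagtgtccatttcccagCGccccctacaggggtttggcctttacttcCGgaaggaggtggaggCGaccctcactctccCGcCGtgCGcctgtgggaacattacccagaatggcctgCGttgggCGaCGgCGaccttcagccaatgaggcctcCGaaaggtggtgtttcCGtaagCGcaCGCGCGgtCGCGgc
The windows hold 25 (ZNF71), 17 (ZNF304), 16 (ZNF548), 11 (ZNF550), 20 (ZNF416) and 22 (ZNF256) CG dinucleotides. Of the 46 members, 41 had a promoter in the table, with 45 windows in all and a median of 17 CG dinucleotides (range 2 to 35), against a median of 11 over all 35116 promoter windows of the same length, of which 93.9% hold at least 1. The letters CG read the same on both strands. These counts describe the sequence, and methylation was not measured.

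The totals of estimated counts ran from 38957142 to 218518344 per library, with a median of 51373543 and a second highest of 86673615. The epithelial genes EPCAM (205.5 to 859 TPM), KRT8, KRT18, CDH1 and KRT20 were at 1 TPM or more in all 54 libraries, and VIL1 in 27. Of 4 fibroblast genes, COL1A2 (at most 0.0952 TPM) and DCN stayed under 1 TPM and PDGFRB reached it in 1 library, while COL1A1 was at 1 TPM or more in 44 libraries and at most 31.1 TPM. The leukocyte genes PTPRC and CD3E stayed under 1 TPM, and LYZ was at 1 TPM or more in 13 libraries. LYZ lay between 1422 and 1685 TPM in sensitive HT-29 and was at most 6.57 TPM elsewhere, and its part in the differences of that form was not tested. The libraries labelled resistant HT-29 did not match that label: of 46 marker genes of HCT-116 (no lower than 10 TPM in its sensitive uracil libraries and no higher than 0.1 TPM in those of DLD-1 and HT-29), 95.7% were at 1 TPM or more in each of these 9 libraries, and of 5 marker genes of HT-29, chosen by the same limits, 0% were. Resistant DLD-1 and resistant HCT-116 libraries carried the markers of their own lines (94.1%, and 95.7% to 97.8%). For this reason the HT-29 group is called labelled resistant throughout, its contrast with sensitive HT-29 may be a contrast between lines, and the calls under uracil are also given against HCT-116. The results of this pair under 5-FU and irradiation and its differences in response are given against sensitive HT-29 alone.

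**Figure D1:**
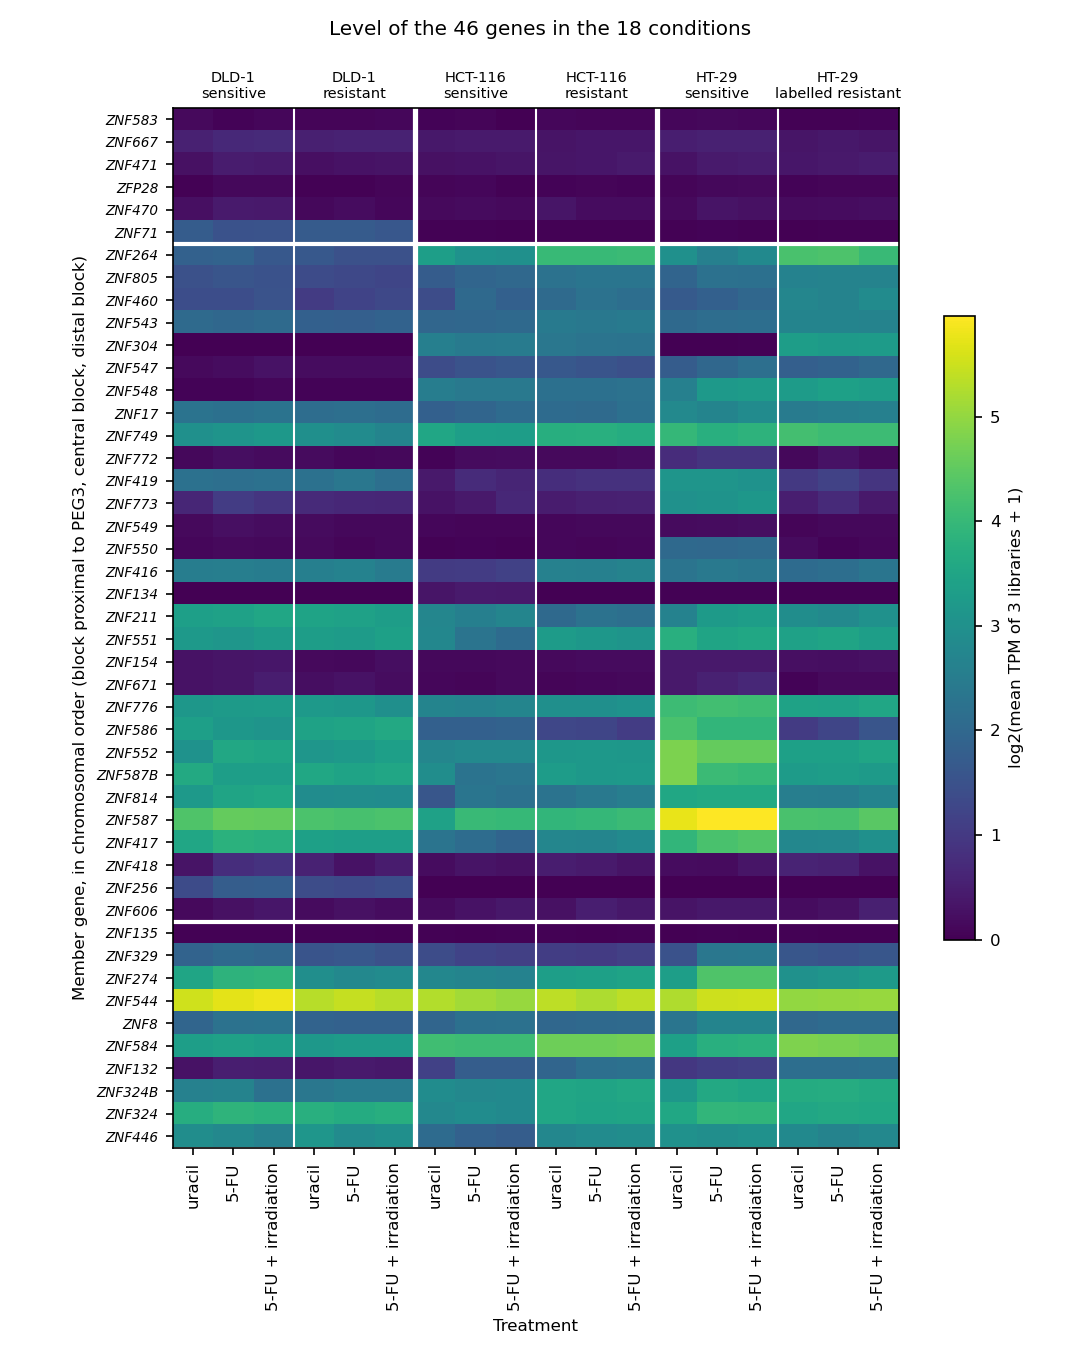
Level of the 46 genes (rows, in chromosomal order, white lines between the 3 blocks) in the 18 conditions (columns), as log2(mean TPM of 3 libraries + 1) on the colour scale. ZNF544 and ZNF587 are bright in every column, the rows of the block proximal to PEG3 are dark except ZNF71 in DLD-1, and the columns of the labelled resistant HT-29 libraries look like those of HCT-116.

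Between 27 and 30 of the 46 members were expressed at a mean of 1 TPM or more in any 1 condition. TPM scales each library to the same total of transcripts and corrects for transcript length, so levels may be set side by side between genes. By this measure 24 members were expressed in all 18 conditions, 16 in the central block and 8 in the distal block. Another 13 stayed under 1 TPM in all conditions, among them 5 of the 6 genes proximal to PEG3, 7 of the 30 central genes, and ZNF135 in the distal block. The remaining 9 members crossed 1 TPM in some conditions: 5 were below 0.1 TPM in every library of at least 1 cell form, and 4 (ZNF419, ZNF773, ZNF547, ZNF132) varied without that. The libraries of a condition were close to each other: the coefficient of variation of a member at 1 TPM or more had a median of 6.53% over 505 pairs of member and condition.

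The member with the highest mean over the 54 libraries was ZNF544, at 39.8 TPM (29.5 to 57.1). ZNF587, which with its near-identical copy ZNF417 is known for repressing endogenous retroviruses of the HERV-K family, followed at 24.2 TPM (8.99 to 62.8), then ZNF584 (7.41 to 28.5 TPM), and ZNF749 and ZNF552 at a mean of 10.9 TPM. The order was the reverse in sensitive HT-29, where ZNF587 lay between 47.9 and 62.8 TPM and ZNF544 between 36.6 and 46.7 TPM. At the other end ZNF135 averaged 0.0169 TPM, ZNF134 0.0581 TPM and ZFP28 0.0589 TPM. For some members the smaller part of the level came from transcripts annotated as protein coding. Their share of the TPM was 3.87% for ZNF550, 8.2% for ZNF667, 23.2% for ZNF583 and 33.9% for ZNF671. It was 40.4% for ZNF470, 43.0% for ZNF132 and 43.2% for ZNF135. Most of the level of these genes is therefore not that of a transcript annotated as protein coding.

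The summed level of the 46 genes was highest in sensitive HT-29 and lowest in sensitive HCT-116. Under uracil it was 340 ± 11.4 TPM (SD, n = 3) in sensitive HT-29, 221 ± 8.12 in sensitive DLD-1 and 173 ± 4.05 in sensitive HCT-116, with no overlap between libraries of these lines. In the resistant forms it was 206 ± 1.40 TPM for DLD-1, 229 ± 5.43 for HCT-116 and 258 ± 3.79 for labelled resistant HT-29. The sum was therefore lower in resistant than in sensitive DLD-1 and higher in resistant than in sensitive HCT-116. The central block carried most of the excess of sensitive HT-29, with 251 TPM there against 123 in sensitive DLD-1 and 90.4 in sensitive HCT-116.

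The 6 genes whose promoters are shown above were singled out by their pattern across cell forms. ZNF71, ZNF256, ZNF304, ZNF548 and ZNF550 were expressed in some forms and nearly absent from others, and ZNF416 was low in a single form. Other members, among them ZNF773 and ZNF586, differed between forms by more than ZNF416 did. In bulk RNA, fewer cells that express a gene and less of its RNA per cell cannot be told apart. ZNF71, the last gene of the proximal block, reached a lowest, median and highest TPM of 1.56, 2.03 and 2.43 in the 9 sensitive DLD-1 libraries and 1.86, 2.17 and 2.66 in the 9 resistant ones. In the 36 libraries of the other forms ZNF71 was never above 0.0522 TPM, so both DLD-1 forms stood apart from all others without overlap. ZNF256, a C2H2 protein isolated as a partner of TRIM28, had the same distribution, with 1.52, 2.34 and 2.77 TPM in sensitive DLD-1, 1.33, 1.58 and 1.94 in resistant DLD-1, and 0 in all 36 others. Under uracil ZNF256 was at least 35.2-fold higher in sensitive DLD-1 than in sensitive HCT-116, a bound set by 3 counts.

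ZNF304, ZNF547 and ZNF548 are consecutive on the chromosome and were all low in DLD-1. ZNF304 was at most 0.0288 TPM in the 18 DLD-1 libraries and at most 0.0373 TPM in sensitive HT-29. In HCT-116 it had a lowest, median and highest TPM of 4.33, 4.73 and 5.11 in sensitive and 3.7, 4 and 4.33 in resistant cells, and in labelled resistant HT-29 8.29, 8.69 and 9.64. The gene was thus on in both HCT-116 forms and in the libraries that carry HCT-116 markers, and off in the others. ZNF548 lay between 0.0198 and 0.101 TPM in DLD-1 and between 3.21 and 10.5 TPM in every other library. ZNF547, between them, stayed at or under 0.44 TPM in DLD-1 and ran from 1.37 to 4.31 TPM elsewhere. The locus of ZNF547 also holds transcripts that the annotation gives to TRAPPC2B, and 57.8% of its TPM came from transcripts annotated as protein coding. The genes on either side, ZNF543 and ZNF17, were at 2.26 to 5.83 and 2.39 to 7.05 TPM in all 54 libraries.

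In a second run of neighbours, ZNF772, ZNF419, ZNF773, ZNF549 and ZNF550, all but ZNF549 had their highest median in sensitive HT-29. ZNF550 had 2.82, 3.05 and 3.68 TPM as lowest, median and highest in that form, and the other 45 libraries were at or under 0.178 TPM. ZNF773 had 6.39, 7.57 and 8.28 TPM there, against at most 1.58 TPM elsewhere, and ZNF772 0.551, 0.87 and 1.05 TPM, against at most 0.287 TPM. ZNF419, the near copy of ZNF773, ranged from 6.32 to 9.38 TPM in sensitive HT-29, from 3.06 to 4.84 TPM in DLD-1 and from 0.279 to 1.58 TPM in the remaining forms. ZNF549 had a median of 0.136 TPM in sensitive HT-29 (0.0937 to 0.227) and 0.148 TPM in sensitive DLD-1 (0.0773 to 0.19), ranges that overlap.

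ZNF416 was low in 1 form only. In sensitive HCT-116 its lowest, median and highest TPM were 0.899, 1.05 and 1.58, against 4.83, 5.21 and 5.48 in resistant HCT-116 and 3.06 to 5.53 in the other forms. No library of sensitive HCT-116 overlapped any other library.

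**Figure D2:**
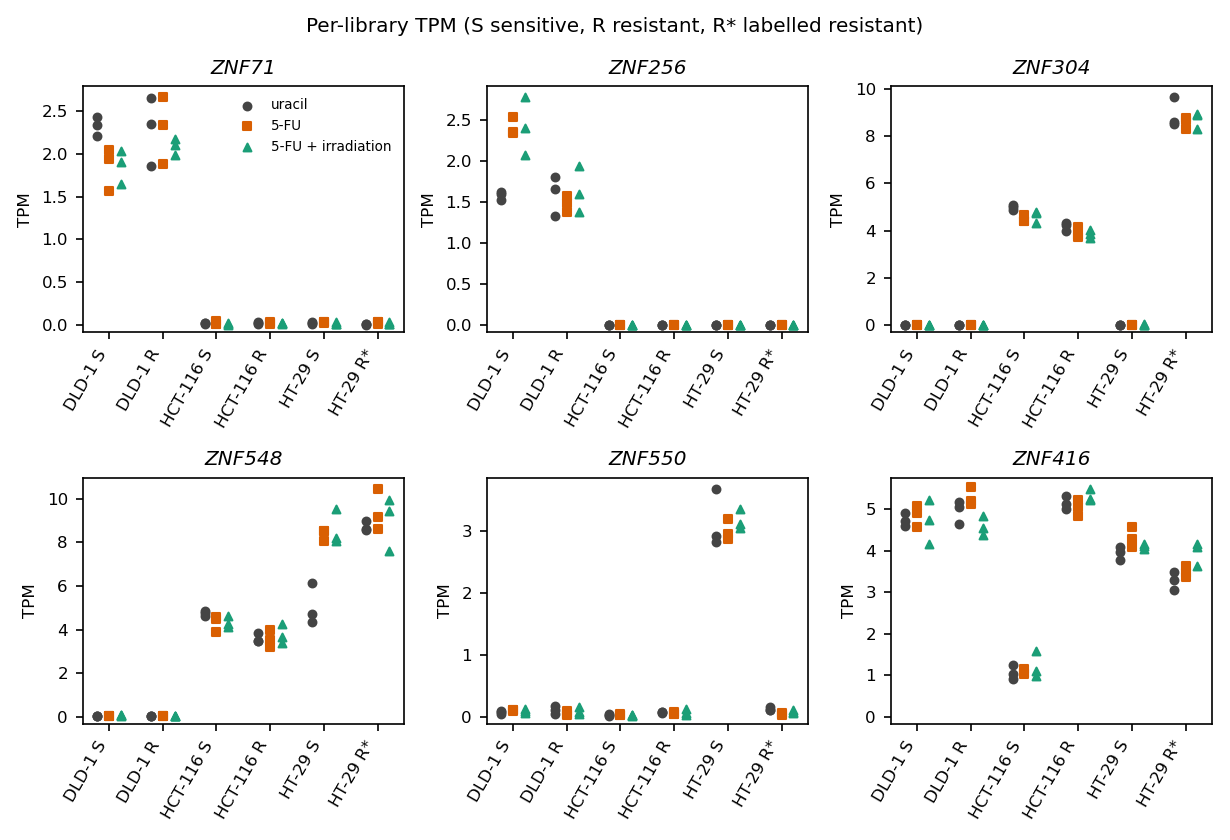
TPM of ZNF71, ZNF256, ZNF304, ZNF548, ZNF550 and ZNF416 in each of the 54 libraries (y axis from 0), by cell form on the x axis and treatment by marker, 1 point per library. The genes were picked for their differences between cell forms, so the plot cannot weigh treatment against cell form. ZNF256 is at 0 in all forms but DLD-1, and ZNF416 lies at or under 1.58 TPM in sensitive HCT-116 alone.

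In the test of counts (edgeR, quasi-likelihood, a Benjamini-Hochberg adjusted p no higher than 0.01 together with a 2-fold difference, up or down), fitted over all 54 libraries, 44 members passed the filter on low counts. Under uracil 20 of them differed between sensitive DLD-1 and sensitive HCT-116, 6 lower and 14 higher in DLD-1, where 30.7% of all 26043 genes tested differed. Between sensitive HT-29 and sensitive HCT-116 2 were lower and 17 higher in HT-29 (37.5% of all genes), and between sensitive HT-29 and sensitive DLD-1 4 were lower and 14 higher in HT-29 (30.9%). These comparisons share libraries. The largest differences of DLD-1 from HCT-116 were ZNF304, at least 336-fold lower, ZNF548 (log2 fold change −6.16, SE 0.16, adjusted p = 1.91e-35), ZNF71 (6.21, SE 0.27, adjusted p = 2.99e-26) and ZNF256 (above). HT-29 was above HCT-116 in ZNF550 (6.82), ZNF773 (4.59), ZNF419 (4.06), ZNF772 (3.52), ZNF586 (3.18) and ZNF587 (2.52), and above DLD-1 in ZNF548 (6.24), ZNF547 (5.45) and ZNF550 (5.37).

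Set beside each other over the 46 genes on log2(TPM + 1), the uracil means of sensitive and resistant DLD-1 correlated at r = 0.995 and those of sensitive and resistant HCT-116 at r = 0.966. The labelled resistant HT-29 mean correlated at r = 0.98 with resistant HCT-116, 0.968 with sensitive HCT-116 and 0.783 with sensitive HT-29. These correlations are across genes, which are not replicates, and a few abundant members weigh on them.

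Resistant DLD-1 differed little from sensitive DLD-1 in this cluster, and all of the members that passed the thresholds were lower. ZNF470, in the proximal block, was at 0.147, 0.206 and 0.195 TPM in the 3 sensitive uracil libraries and at 0.129, 0.0909 and 0.0714 in the resistant ones. ZNF154, a gene often methylated in tumours, was at 0.202, 0.261 and 0.192 TPM against 0.172, 0.125 and 0.0557. Neither gene's libraries overlapped, and both were under 1 TPM in all of them. The log2 fold change was −1.27 (SE 0.32, edgeR adjusted p = 0.00332) for ZNF470 and −1.21 (SE 0.30, adjusted p = 0.00305) for ZNF154. The other 7 members, ZFP28, ZNF304, ZNF547, ZNF548, ZNF134, ZNF606 and ZNF135, did not pass the filter on low counts in this line. These 2 of 39 members tested stand beside 5.7% of all 21814 genes called, 2.01% lower and 3.69% higher. By the adjusted p alone 9 of the 39 were lower and 0 higher, against 11.5% and 13.1% of all genes; 12 of the 39 had a positive log2 fold change and 27 a negative one, with a median of −0.10 against −0.01 over all genes. Both calls were lost when replicate 2 or replicate 3 was left out, and when the 2 groups were fitted alone.

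More members were called in DLD-1 under 5-FU than under uracil, as were more of all genes (9.11% against 5.7%). One of these members was ZNF274, a KRAB and SCAN domain protein known for binding the 3′ ends of zinc finger genes, where it recruits SETDB1. ZNF274 was at 14.1, 13.7 and 12.8 TPM in sensitive and 5.78, 5.66 and 6.27 TPM in resistant DLD-1 under 5-FU (log2 fold change −1.18, SE 0.06, adjusted p = 2.76e-12), and at 13.8, 14.2 and 13.7 against 5.7, 5.93 and 7.24 TPM with irradiation (−1.08). Under uracil the difference was smaller, with 10.4 ± 0.635 against 6.69 ± 0.278 TPM (SD, n = 3, −0.64, adjusted p = 5.49e-08). In all, 4 members were lower and 0 higher under 5-FU (ZNF470 −1.35, ZNF418 −1.33, ZNF274, ZNF154 −1.07; 9.11% of all genes called, 5.23% lower) and 3 lower and 0 higher with irradiation (ZNF470 −1.82, ZNF418 −1.27, ZNF274; 9.38%, 5.07% lower). ZNF470 was the only member called under all 3 treatments. By the adjusted p alone 13 of the 39 members were lower and 5 higher under 5-FU, and 11 and 5 with irradiation. The shares of all genes by that rule are not given here. When replicate 1 or replicate 2 was left out, ZNF274 was the only call under 5-FU. With irradiation the call of ZNF418 was lost without any 1 of the 3 replicates (adjusted p = 0.0136, 0.0269 and 0.0177).

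Under uracil resistant HCT-116 stood above sensitive HCT-116 in most members. ZNF416 rose from 0.899, 1.03 and 1.25 TPM in the sensitive uracil libraries to 5.01, 5.32 and 5.12 in the resistant ones (log2 fold change 2.24, SE 0.13, edgeR adjusted p = 2.16e-12). ZNF460 rose from 1.56, 1.63 and 1.69 to 3.14, 3.26 and 3.18 TPM (1.13, SE 0.15, adjusted p = 1.26e-06). ZNF132, reported as methylated in prostate tumours, rose from 1.26, 1.21 and 1.24 to 2.67, 2.72 and 3.24 TPM (1.10, SE 0.12, adjusted p = 1.16e-07). In each of these genes every resistant library was above every sensitive one. ZNF419 (0.288, 0.44 and 0.279 to 0.702, 0.717 and 0.771 TPM, 1.12) and ZNF470 (0.143, 0.101 and 0.0808 to 0.2, 0.32 and 0.281 TPM, 1.41) were also higher, both below 1 TPM. The call of ZNF470 was lost without replicate 1 or replicate 3 (adjusted p = 0.0189 and 0.0118), and that of ZNF132 without replicate 3 (log2 fold change 0.97).

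Lower in resistant HCT-116 were ZNF586 and ZNF134. ZNF586 fell from 2.68, 2.64 and 2.25 to 1.37, 1.79 and 1.05 TPM (log2 fold change −1.15, SE 0.16, edgeR adjusted p = 2.08e-06). ZNF134, one of the members without a KRAB box, went from 0.558, 0.122 and 0.0997 TPM to 0, 0.0127 and 0.0128, and was at least 5.15-fold lower, with 1 sensitive library well above the other 2. The bound was 10.7-fold under 5-FU and 10.9-fold with irradiation.

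The calls under uracil came to 2 lower and 5 higher of 37 members, where 11.0% of all 22975 genes passed, 6.8% lower and 4.17% higher. By the adjusted p alone 6 members were lower and 21 higher, against 24.7% of all genes lower and 16.4% higher. The median log2 fold change of the 37 was 0.47, against 0.00 over all genes, and 29 of the 37 were positive. That median was 0.28 under 5-FU, with 22 positive, and 0.31 with irradiation, with 26 positive. Over all genes it was −0.02 and 0.01. Under 5-FU 1 member was lower (ZNF134) and 4 were higher (ZNF416 2.15, ZNF446 1.34, ZNF551 1.01, ZNF587B 1.01; 13.3% of all genes called), of which ZNF587B fell to 0.94 without replicate 1. With irradiation ZNF134 and ZNF586 (−1.28) were lower and ZNF416 (2.09), ZNF446 (1.44) and ZNF417 (1.09) higher (11.9%). ZNF134 and ZNF416 were called under all 3 treatments. By block, 7 of the 9 tested distal members, 13 of the 25 central ones and 1 of the 3 proximal ones were higher under uracil by the adjusted p alone. The 9 members that did not pass the filter in this line were ZNF583, ZFP28, ZNF71, ZNF550, ZNF671, ZNF418, ZNF256, ZNF606 and ZNF135.

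**Figure D3:**
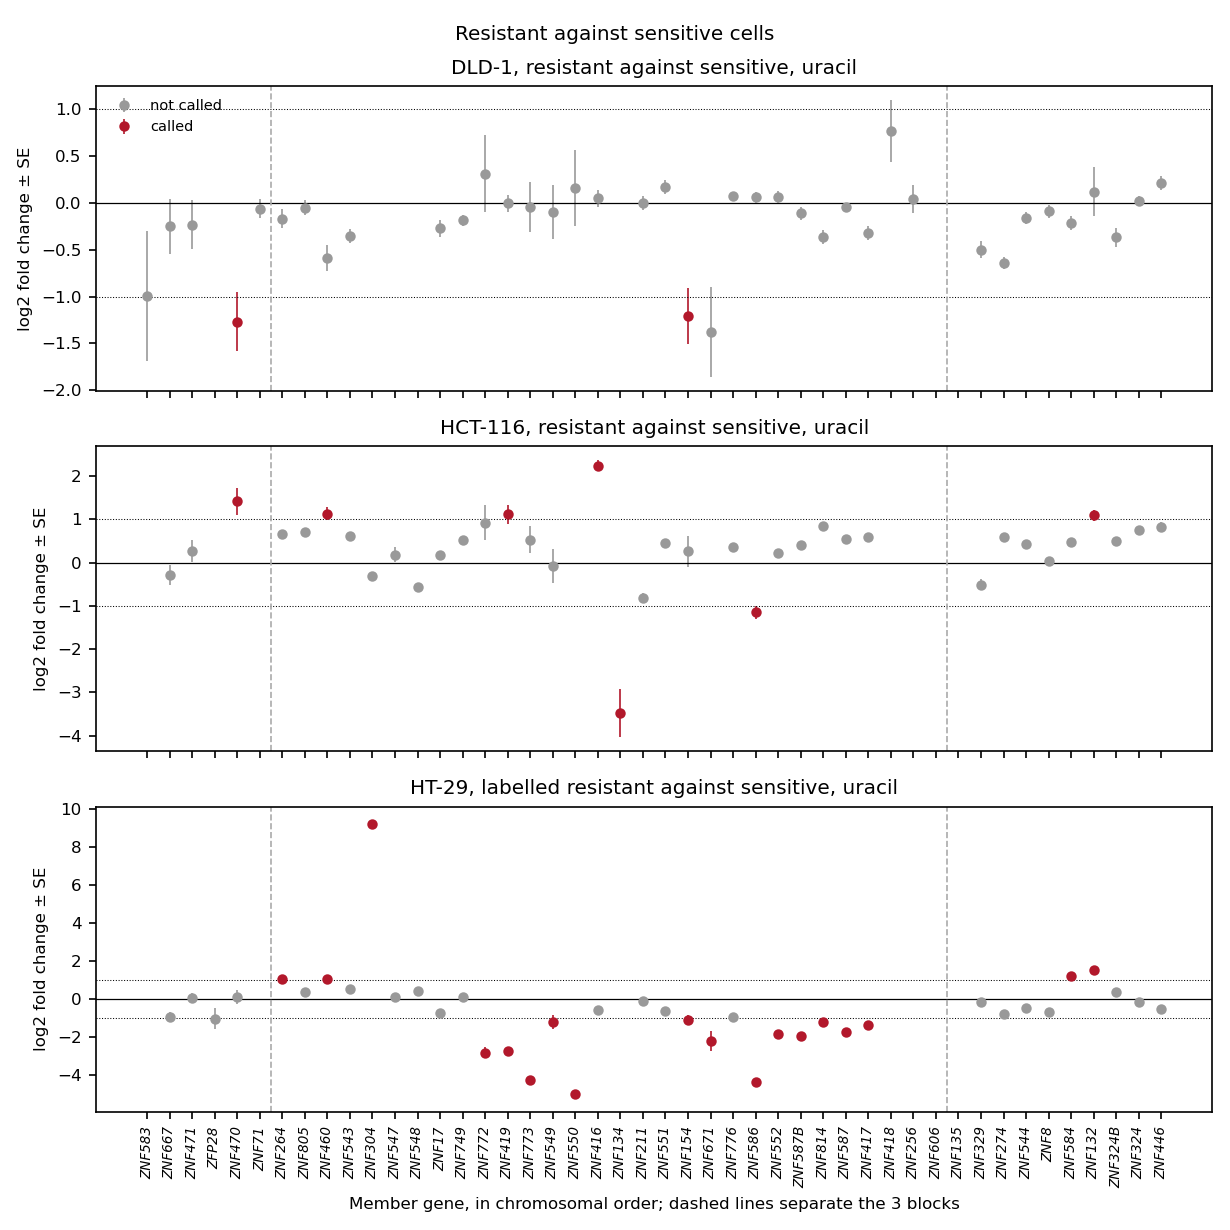
log2 fold change (± SE, from the count model) of resistant against sensitive cells under uracil for each tested member, in chromosomal order, 1 panel per line, with called members in red and dotted lines at −1 and 1. DLD-1 has 2 red points, both below the line, HCT-116 7, of which 5 are above, and HT-29, whose resistant libraries carry HCT-116 markers, 18, of which 13 are below.

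The shift in HCT-116 was not restricted to the listed genes. Of the other protein-coding genes within the span of the cluster, 11 were tested, 10 were higher in resistant cells and 7 passed the adjusted p, with a median log2 fold change of 0.64. All 6 tested genes between the last member and the end of the chromosome were higher at the adjusted p, with a median of 0.86. The zinc finger genes MZF1 (1.33) and ZNF497 (1.05) passed both thresholds. TRIM28, the gene of the KRAB corepressor, lies in this stretch and rose from 685 ± 36.6 to 1162 ± 83.8 TPM (SD, n = 3, log2 fold change 0.68, edgeR adjusted p = 5.21e-11), without reaching 2-fold. The ubiquitin-conjugating enzyme gene UBE2M (0.95), SLC27A5 (0.80) and ZBTB45 (0.77) stood in the same range.

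Further in along chromosome 19 the values were different. Among genes outside the KRAB zinc finger family, the 40 tested between 55 and 56 Mb had a median of −0.03, while the 15 between 58 and 59 Mb had a median of 0.80 and 13 of them were higher at the adjusted p. The 326 genes from 45 Mb to the first member had a median of −0.10. KRAB zinc finger genes elsewhere on chromosome 19 moved the other way: of 142 tested, 65 were lower and 7 higher by the adjusted p, with a median of −0.25, and the 121 on other chromosomes had a median of −0.10. Scaling by library size alone gave a median of 0.54 for the members. In DLD-1 the 147 KRAB zinc finger genes elsewhere on the chromosome had a median of −0.14, with 36 lower and 5 higher, beside −0.10 for the members. The copy number of the region was not measured.

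**Figure D4:**
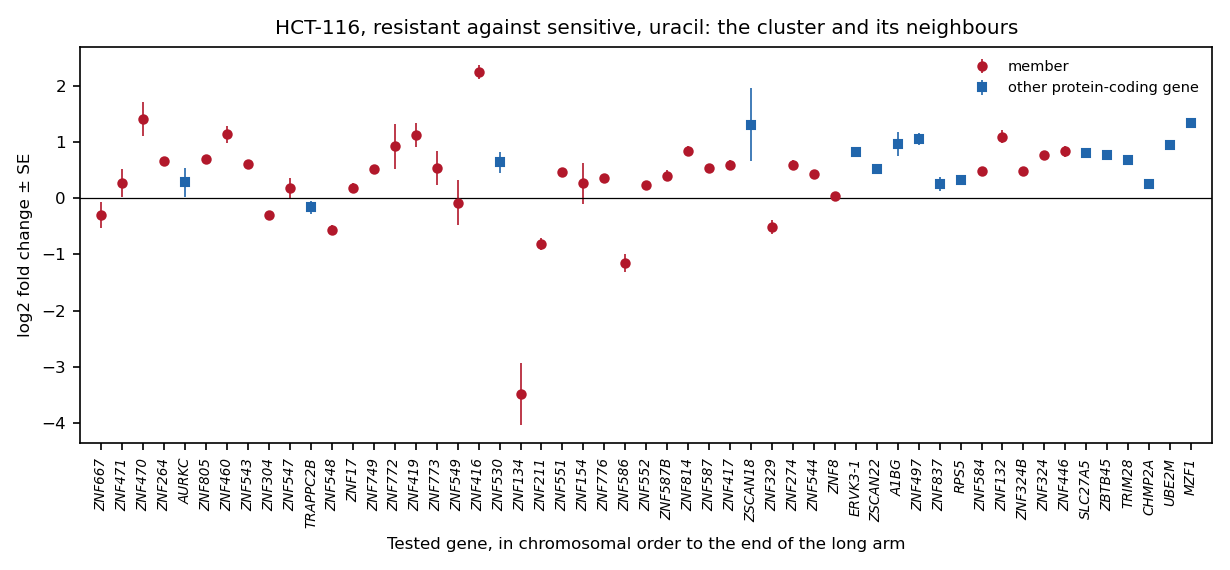
log2 fold change (± SE) of resistant against sensitive HCT-116 under uracil for every tested member (red) and every other tested protein-coding gene (blue) from the first member to the end of chromosome 19, in chromosomal order. The genes after the last member, at the right, are all above 0, and most members are too, while ZNF134 and ZNF586 are below −1.

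The labelled resistant HT-29 libraries differed from sensitive HT-29 in 18 of 39 members under uracil, 13 lower and 5 higher, where 39.4% of all 23756 genes passed. The neighbours ZNF586, ZNF552 and ZNF587B were all lower. ZNF586 was at 17.4, 18.4 and 18.5 TPM in sensitive HT-29 and at 1.24, 0.776 and 1.15 TPM in the labelled resistant libraries (log2 fold change −4.35, SE 0.10, edgeR adjusted p = 7.59e-23). ZNF587B was at 26.5, 25.6 and 27.8 against 8.57, 8.3 and 9.16 TPM (−1.92), and ZNF587 at 53.7, 47.9 and 59.6 against 17.5, 17.7 and 18.7 TPM (−1.75). No library of 1 group reached the range of the other in these genes. ZNF550 (−5.02), ZNF773 (−4.26), ZNF772 (−2.82), ZNF419 (−2.72), ZNF671 (−2.22), ZNF552 (−1.81), ZNF417 (−1.38) and ZNF814 (−1.21) were also lower. The other 4 calls, ZNF549, ZNF154, ZNF264 and ZNF584, lay between −1.23 and 1.20. ZNF304 was the largest rise, from 0.0265, 0.00644 and 0 to 8.6, 8.51 and 9.64 TPM (9.19), followed by ZNF132 (1.55) and ZNF460 (1.06). Some of these calls rested on single replicates: ZNF460 was lost without replicate 1 (0.94), ZNF264 without replicate 2 (0.96), ZNF671 without replicate 3 (−1.47, adjusted p = 0.0461), ZNF154 without replicate 1 or 3 (adjusted p = 0.0102, and −0.96), and ZNF549 without any 1 of the 3 (adjusted p = 0.0207, 0.0208 and 0.0143).

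Under 5-FU 12 members were lower and 4 higher (42.7% of all genes called), and with irradiation 12 were lower and 3 higher (42.4%). All 13 members lower under uracil were in the central block. The distal members ZNF274 (−1.63 under 5-FU, −1.49 with irradiation) and ZNF329 (−1.21 and −1.15) were lower in the other 2 treatments, and under uracil they had −0.80 and −0.18. In all 3 treatments ZNF417, ZNF419, ZNF550, ZNF552, ZNF586, ZNF587, ZNF671, ZNF772, ZNF773 and ZNF814 were lower and ZNF132, ZNF304 and ZNF460 higher. Under 5-FU and with irradiation ZNF460 was lost without replicate 2 (0.97 in both), and with irradiation ZNF814 without replicate 1 (−0.92). With library size alone ZNF814 fell short of 2-fold in all 3 treatments (−0.95 under uracil, −0.96 under 5-FU and −0.87 with irradiation). ZNF154 (−0.85) and ZNF549 (−0.97) were lost under uracil with that scaling as well. Against sensitive HCT-116 the same libraries had 2 members lower (ZNF134, at least 4.5-fold, and ZNF586, −1.16) and 6 higher (ZNF550 1.81, ZNF460 1.79, ZNF416 1.51, ZNF419 1.34, ZNF132 1.30, ZNF814 1.22) of 44, where 6.87% of all genes passed. Against resistant HCT-116 ZNF548 alone was called, higher (8.74 ± 0.224 against 3.60 ± 0.217 TPM, 1.09, adjusted p = 3.74e-13; 3.36% of all genes). Without replicate 2 ZNF548 fell just short of 2-fold and ZNF304 was called in its place, and against sensitive HCT-116 ZNF134 (adjusted p = 0.0327) and ZNF586 (−0.99) were lost, as was ZNF550 without replicate 3 (adjusted p = 0.0859). ZNF416, ZNF460, ZNF132, ZNF419, ZNF134 and ZNF586 thus differed from sensitive HCT-116 in the same direction in resistant HCT-116 and in the labelled resistant HT-29 libraries, 2 comparisons that share the sensitive libraries.

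In sensitive cells few members passed both thresholds after 5-FU, but the sum of the distal block moved too. For HT-29 that sum was 88.3 ± 0.494 TPM under uracil and 119 ± 0.930 TPM with the drug (SD, n = 3). DLD-1 had 94.8 ± 4.08 and 107 ± 2.41 TPM, whereas HCT-116 went the other way, with 81.5 ± 3.45 and 77.7 ± 1.19 TPM. The central block of HT-29 stayed level, at 251 ± 11.7 and 248 ± 8.14 TPM. These sums are of TPM and do not carry the scaling used in the test of counts. ZNF544, the most abundant member, lies in the distal block. By the edgeR adjusted p it was higher in 0 lines, and in 2 with library size alone. ZNF587B, whose protein is close to those of ZNF552 and ZNF814, was lower in all 3 lines. In HT-29 it went from 26.5, 25.6 and 27.8 TPM to 15.8, 15.1 and 16.1 (log2 fold change −1.01, SE 0.04, edgeR adjusted p = 2.75e-16), in HCT-116 from 6.54 ± 0.219 to 3.86 ± 0.190 TPM (−0.77, adjusted p = 1.57e-06) and in DLD-1 from 11.3 ± 0.330 to 9.19 ± 0.415 TPM (SD, n = 3, −0.44, adjusted p = 2.91e-05). Treated and control libraries did not overlap in any line. ZNF8 was higher in all 3 lines by less (0.27 in DLD-1, 0.34 in HCT-116, 0.20 in HT-29), and both held with library size alone. ZNF446 was lower in all 3 (−0.25, −0.39 and −0.27) but passed in none of them with library size alone. These 3 come from the 33 members tested in every line, of which 20 passed the adjusted p in at least 1 line, where 72.1% of all genes tested in every line did, and 11.2% passed in the same direction in all 3. ZNF552 passed in opposite directions (0.36 in DLD-1, −0.53 in HT-29).

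Past the 2-fold threshold 5-FU raised ZNF418 in sensitive DLD-1 (0.235, 0.181 and 0.314 to 0.541, 0.945 and 0.692 TPM, log2 fold change 1.42, SE 0.30, edgeR adjusted p = 0.00062), 1 of 39 members beside 4.02% of all genes, a call lost without replicate 1 or replicate 2 (adjusted p = 0.0115 and 0.0282). In sensitive HCT-116 it raised ZNF814 (1.98, 1.98 and 2.05 to 4.12, 3.54 and 4.21 TPM, 1.04, adjusted p = 1.08e-09) and ZNF419 (1.17), 2 of 37 beside 8.14%, of which ZNF814 was lost without replicate 1 (0.98). In sensitive HT-29 it lowered ZNF587B, 1 of 39 beside 12.2%, a call at the edge of the threshold that was lost in DESeq2 and in a fit of the compared groups, each just short of 2-fold, and with library size alone (−0.86). The adjusted p alone gave 4 lower and 7 higher in DLD-1 (20.3% and 14.4% of all genes). The numbers were 3 and 7 for HCT-116 (24.4% and 17.6%) and 8 and 7 for HT-29 (24.9% and 22.1%). With library size alone these became 2 and 13, 2 and 9, and 5 and 13. ZNF274 was higher after 5-FU in sensitive HT-29, from 8.8, 8.96 and 9.74 TPM to 18.5, 18.5 and 19.9 (0.88, adjusted p = 1.5e-14), and in sensitive DLD-1 (0.36, adjusted p = 3.74e-05). ZNF586 was lower in HT-29 (−0.83) and DLD-1 (−0.45).

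TRIM28 was lower after 5-FU in every sensitive line (log2 fold change −0.43 in HT-29, −0.40 in DLD-1 and −0.38 in HCT-116; edgeR adjusted p = 1.8e-09, 2.01e-06 and 4.63e-07). The resistant forms, labelled resistant HT-29 included, gave −0.08, 0.00 and −0.05. Of the 21 tested genes in a list of TRIM28, its partners and DNA methyltransferases, 0 passed both thresholds in any of these sensitive lines. By the adjusted p alone 9 were lower and 5 higher in DLD-1, while HCT-116 had 13 and 2 and HT-29 had 12 and 3. The shares of all genes lower and higher by that rule were 20.3% and 14.4% (DLD-1), 24.4% and 17.6% (HCT-116), and 24.9% and 22.1% (HT-29). Whether the list differed from all genes was not tested.

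**Figure D5:**
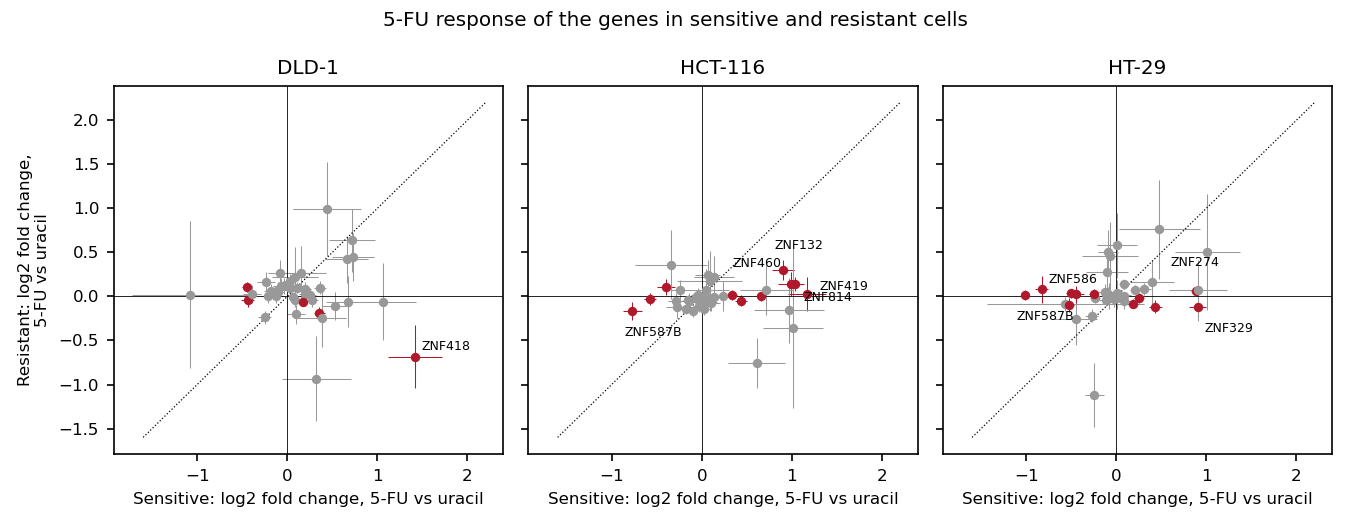
log2 fold change of 5-FU against uracil in sensitive cells (x axis) and in resistant cells (y axis) for the tested members of each line, with SE bars, the diagonal dotted, and members whose response differed between the forms (adjusted p at most 0.01) in red. The red points spread along x and, apart from ZNF418 in DLD-1, stay near 0 on y, as ZNF587B does in HT-29, at −1.01 and 0.02; the HT-29 panel uses the labelled resistant libraries for y.

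Resistant cells showed no called response to 5-FU in these genes, and adding irradiation to 5-FU gave none in either form. In edgeR 0 members passed in any of these 9 comparisons, as in DESeq2. At an unadjusted p under 0.05 the counts were 3, 5 and 4 of the tested members for 5-FU in resistant DLD-1, HCT-116 and labelled resistant HT-29; 2, 1 and 1 for irradiation in the sensitive forms; and 6, 2 and 8 in the resistant ones. Few genes of any kind passed both thresholds here: 0.0138%, 0.0% and 0.00421% of all genes for 5-FU in the resistant forms, 0.0%, 0.0% and 0.00842% for irradiation in the sensitive forms and 0.142%, 0.0261% and 0.434% in the resistant ones, each in the order of the lines just given.

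The difference in 5-FU response between the 2 forms was tested directly (an interaction term, edgeR adjusted p at most 0.01). It passed for 5 members in DLD-1 (22.8% of all genes), for 10 in the HCT-116 pair (29.7%) and for 11 in the HT-29 pair (35.4%). In each of them the response of resistant cells was nearer to 0 than that of sensitive cells, and ZNF418 in DLD-1 was the farthest apart, at 1.42 in sensitive and −0.68 in resistant cells. ZNF587B was among them in DLD-1 (0.40), HCT-116 (0.61) and the HT-29 pair (1.03), and ZNF274 in DLD-1 (−0.54) and the HT-29 pair (−0.82). The resistant libraries of the HT-29 pair carry HCT-116 markers, so its differences in response may be differences between lines. The DLD-1 difference of ZNF587B was lost with library size alone (0.29, adjusted p = 0.0366) and without any 1 of the 3 replicates (adjusted p = 0.0178, 0.0284 and 0.0329), the HCT-116 one without replicate 1 (adjusted p = 0.0325), and that of ZNF418 in DLD-1 without replicate 1 or 2 (adjusted p = 0.0183 and 0.0389). The share of members whose response differed was near or below that of all genes in each line.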

How the data were processed

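RNA-seq of 54 libraries, 3 in each of 18 conditions, was used as deposited. Per the study's methods and the processing notes, the authors trimmed the reads with Trimmomatic 0.36, checked them with FastQC 0.11.8, quantified them with kallisto 0.44.0 on Ensembl transcripts of GRCh38.p13, and summed transcripts per gene. The deposited values are estimated counts, which are not normalized, and TPM, corrected by the authors' tool for length and depth. The strand setting of the counting is not given in the sources used here.

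Groups came from the sample labels. The estimated counts were rounded and tested with the edgeR 4.0.16 quasi-likelihood test (R 4.3.3, TMM scaling, filterByExpr), in 1 fit per line over 18 libraries and 6 groups, and in 1 fit over 54 libraries for comparisons between lines. A gene was called where p, adjusted by Benjamini-Hochberg over all genes tested, was no higher than 0.01 and the log2 fold change was 1 or more in size. Interaction terms used the adjusted p alone. Standard errors and p-values rest on the spread between biological replicates within conditions. That spread was estimated over all groups of a fit, and not from the 3 replicates of the compared conditions alone. Log2 fold changes come from the count model and TPM from the deposited table, so their ratios can differ. Genes with no more than 3 counts in any library of a group were held to be at the floor, and a fold against them is a lower bound that covers counting error only. In GENCODE 44 translations KRAB boxes were found with HMMER 3.4 and C2H2 fingers by a pattern of spaced cysteines and histidines, and protein identity with Biopython 1.88. On simulated counts the adjusted p alone recovered 94.0% to 100.0% of 50 genes changed 2-fold or 4-fold in each direction. The 2-fold threshold was not applied there, and the changed genes were drawn from those with more than 50 expected counts. Every simulated gene had the same spread between replicates, set in advance and not estimated from these data. The recovery therefore does not cover the full rule for a call, members with few reads or members that vary more between replicates.

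The 46 members and the gene lists were chosen with earlier results of these data known. Members were named when called in a comparison (up to the 12 largest), when called in all 3 treatments or in several lines, or when off in 1 cell form and on in another. The alternatives were DESeq2 1.42.0, library size alone, no filter, a fit limited to the groups compared, blocking on replicate number, each replicate left out, and the deepest DLD-1 library thinned to the median of its line.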

Additional observations from a re-analysis of the deposited data

Results flagged for a closer look

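In sensitive and resistant cells of a line the response to 5-FU was compared by an interaction term (edgeR quasi-likelihood test, Benjamini-Hochberg adjusted p at most 0.01), and each value below is the log2 response of resistant minus that of sensitive cells. In DLD-1 it was −0.54 for ZNF274, −2.10 for ZNF418, 0.55 for ZNF586, −0.24 for ZNF587 and 0.40 for ZNF587B. In HCT-116 it was −0.60 for ZNF132, −1.14 for ZNF419, 0.51 for ZNF446, −0.84 for ZNF460 and 0.54 for ZNF551. It was also −0.66 for ZNF587, 0.61 for ZNF587B, −0.32 for ZNF8, −0.49 for ZNF805 and −0.90 for ZNF814 in that line. In the HT-29 pair, whose resistant libraries carry HCT-116 markers, it was 0.47 for ZNF17, −0.55 for ZNF211, −0.82 for ZNF274, −0.27 for ZNF324B and −1.03 for ZNF329. The remaining values in this pair were 0.54 for ZNF551, 0.43 for ZNF552, −0.27 for ZNF584, 0.91 for ZNF586, 1.03 for ZNF587B and 0.28 for ZNF776. Kept under every alternative run were ZNF274 and ZNF586 for DLD-1, and ZNF551, ZNF587 and ZNF814 for HCT-116. For the HT-29 pair they were ZNF274, ZNF329, ZNF551, ZNF586 and ZNF587B. All others listed failed the adjusted p under some alternative. Leaving out any single replicate was enough for ZNF587 and ZNF587B (DLD-1), ZNF132 and ZNF419 (HCT-116) and ZNF324B (HT-29 pair). By the same rule 22.8% (DLD-1), 29.7% (HCT-116) and 35.4% (HT-29 pair) of all genes passed.

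Under uracil ZNF470 and ZNF460 differed between resistant and sensitive cells in opposite directions in DLD-1 and HCT-116, with every resistant library on one side of the sensitive ones in each line. For ZNF470 the log2 fold change under uracil was −1.27 (DLD-1) and 1.41 (HCT-116), and ZNF460 had −0.59 and 1.13. In the other 2 treatments HCT-116 had 0.05 and 0.15 for ZNF470 and 0.29 and 0.40 for ZNF460, none of them called, while DLD-1 had −1.35 and −1.82 for ZNF470 and −0.25 and −0.35 for ZNF460. The DLD-1 call of ZNF470 under uracil was lost without replicate 2 or replicate 3 (adjusted p = 0.11 and 0.0229), and the HCT-116 one without replicate 1 or replicate 3 (adjusted p = 0.0189 and 0.0118). The difference between the lines was not tested, nor was any single library against the others of its condition.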

How the results depend on the processing

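Of 171 calls of single members in 29 comparisons, 119 were made under every alternative run, 52 were lost under at least 1, and 0 reversed; the cause was not tested. Counts of called members stayed within 1.5 times the value reported in 204 instances and moved further in 22. With library size alone the count for 5-FU rose from 2 to 4 in sensitive HCT-116 (gaining ZNF134 and ZNF460) and from 1 to 4 in sensitive HT-29, where ZNF587B fell short of 2-fold and ZNF274, ZNF329, ZNF470 and ZNF671 passed, and that for labelled resistant HT-29 against resistant HCT-116 rose from 1 to 2 (gaining ZNF304). DESeq2 gave 0 for 5-FU in sensitive HT-29 and 2 for the last comparison. A fit of the compared groups alone gave 0 for resistant against sensitive DLD-1 under uracil and 4 for 5-FU in sensitive HCT-116; in sensitive HT-29 it left the count at 1, with ZNF587B lost and ZNF671 gained. Under library size alone the median change over all genes, on the log2 scale, went to 0.26 for HT-29 under uracil (reported 0.00), 0.19, 0.12 and 0.11 for 5-FU in sensitive HT-29, DLD-1 and HCT-116 (reported 0.03, 0.01 and 0.03), and to −0.12 for resistant against sensitive DLD-1 under 5-FU (reported −0.01), where the split by the adjusted p went from 13 lower and 5 higher to 17 and 1. The sign of ZNF324 in HT-29 under uracil changed with it.

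Leaving out each replicate in turn gave 0 to 2 calls for resistant against sensitive DLD-1 under uracil and 1 to 4 under 5-FU, 0 to 1 for 5-FU in sensitive DLD-1, 1 to 3 in sensitive HCT-116, and 1 to 2 for labelled resistant HT-29 against resistant HCT-116. The interaction counts became 2 to 3 in DLD-1, 3 to 7 in HCT-116 and 6 to 8 in HT-29. Without ZNF544 the highest condition mean of the summed TPM was 328.4 rather than 373.6 and the lowest 134.7 rather than 166.8. The number of members expressed per condition was 28 to 32 at 0.5 TPM and 22 to 29 at 2 TPM.

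Replicate numbers did not pair the libraries: the correlations of deviations between same-numbered libraries ran from −0.186 to 0.228, and in 0 of 26 comparisons were all 3 over 0.1. With the replicate number as a block, the count for 5-FU in sensitive DLD-1 was 2 rather than 1 (gaining ZNF772), and the other counts stayed within 1.5 times. Members under 1 TPM rest on few reads, so a difference in them is less certain than in abundant members.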
